A study of Mus musculus with 6 samples.

Results

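The NF-κB genes described here encode the 5 DNA-binding subunits of the transcription factor NF-κB (*Rela*, *Relb*, *Rel*, *Nfkb1* and *Nfkb2*), 3 of its cytoplasmic inhibitors (*Nfkbia*, *Nfkbib* and *Nfkbie*), and 2 components of the kinase complex that removes those inhibitors (*Ikbkb* and *Ikbkg*). They were picked by gene symbol, and all 10 were among the 19831 genes listed. RNA sequencing was done on inguinal adipose tissue (iAT), the subcutaneous white fat depot of the groin, at postnatal day 6. Total RNA extracted with TRIzol came from 3 wild-type samples and from 3 samples that lacked NPFFR1, the receptor of the neuropeptide NPFF (Npffr1-KO). No treatment was given in the labels. The methods of the study name male C57BL/6 mice for its young animals, kept in specific-pathogen-free housing. They do not say this of the Npffr1-KO mice in particular. How the *Npffr1* allele was made and whether the samples came from separate animals or litters were not given in the sources used here, so the p-values below measure only the spread between these samples.

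The deposited table holds 1 value per gene and genotype in normalized counts, that is, read counts scaled for library size. The values summed to 23137343 in wild-type and 23640005 in Npffr1-KO. Whole reads of each of the 6 libraries could be worked out from these values for 7319 genes, all with a mean under 100. These libraries carry a genotype but no sample number, and are called A, B and C within each genotype. *Npffr1* itself had 1, 0 and 5 reads in the wild-type libraries A, B and C and 0 reads in each Npffr1-KO library, which checks the labels with very few reads. The adipocyte markers *Fabp4*, *Lpl*, *Adipoq*, *Cidec* and *Plin1* had wild-type values between 13552 and 156285, so the labelled tissue carried its defining transcripts.

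NF-κB proteins bind DNA as dimers. In resting cells the inhibitors, the IκB proteins, hold these dimers in the cytoplasm. Ligands such as TNF and interleukin-1, and microbial products through Toll-like receptors, activate the IKK kinase complex, in which IKKβ (*Ikbkb*) phosphorylates the IκB proteins and NEMO (*Ikbkg*) is the scaffold. The IκB proteins are then degraded, and dimers of RELA with the processed product of *Nfkb1* enter the nucleus. A second, non-canonical route, used by lymphotoxin, CD40 ligand and BAFF, processes the product of *Nfkb2* and lets it enter the nucleus with RELB. NF-κB induces several of its own genes, so that the pathway is shaped by feedback. In adipose tissue NF-κB signalling is known from macrophages, lymphocytes, endothelial cells and adipocytes, and for its part in inflammatory gene expression and insulin resistance.

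Since the members include genes that NF-κB itself controls, their promoters were searched for the κB consensus, the 10-base motif that NF-κB dimers recognise, on both strands. The windows were those of RefSeq on GRCm38.p6, from 250 bases before to 50 bases after each annotated start. Windows were held for 7 members. A match lay in at least 1 window of 4 of them, *Nfkb2*, *Nfkbia*, *Nfkbie* and *Rel*, which is 57.1% of the 7, and in none of the windows of *Rela*, *Nfkbib* and *Ikbkg*. Of all 27025 genes with a window, 5.14% held a match. The matches are given as 30 bases on the strand of the gene, 5′ to 3′, with the matched bases in capitals, because they mark which genes of the family carry the motif that the family binds. The 11-base matches are overlapping matches on both strands.
Nfkb2, chr19:46304688-46304717, plus strand: ggatcgtcacGGGAATTCCCCccctcgggg
Nfkb2, chr19:46304716-46304745, plus strand: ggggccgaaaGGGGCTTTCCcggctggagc
Nfkb2, chr19:46305449-46305478, plus strand: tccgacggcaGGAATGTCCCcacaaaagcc
Nfkb2, chr19:46305695-46305724, plus strand: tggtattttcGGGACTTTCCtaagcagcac
Nfkbia, chr12:55492657-55492686, minus strand: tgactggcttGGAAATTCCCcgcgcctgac
Nfkbie, chr17:45555584-45555613, plus strand: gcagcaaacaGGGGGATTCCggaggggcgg
Rel, chr11:23771042-23771071, minus strand: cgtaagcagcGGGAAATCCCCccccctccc

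*Nfkb2* carried the most matches, but it also had 3 windows, against 1 each for *Nfkbia*, *Nfkbie* and *Rel*. Its pair of sites upstream of 1 start began 39 and 11 bases before that start, and the windows of a further start held 1 match beginning 236 bases before it and 1 beginning 10 bases after it. The site of *Nfkbia* began 29 bases, that of *Rel* 92 bases and that of *Nfkbie* 106 bases before the start. A match is a description of these letters and was not measured as binding.

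The levels of the members, in normalized counts per kb of the listed gene length, spanned a wide range in iAT. *Nfkbia*, which encodes IκBα, the inhibitor that is degraded and resynthesised fastest, had the highest level, with 2090 in wild-type against 2667 in Npffr1-KO. In wild-type it lay at percentile 94.6 of those genes whose mean reached 10 normalized counts. *Rela*, the subunit with the main transactivation domain of the canonical dimer, followed with 1079 in wild-type and 1164 in Npffr1-KO. *Relb* (694 in wild-type), *Nfkb1* (654), *Nfkbib*, which encodes IκBβ (649), *Ikbkb* (589.9) and *Nfkb2* (574) lay close together per kb. *Nfkbie*, which encodes IκBε, was lower at 288 and the scaffold *Ikbkg* at 138. *Rel*, the subunit best known from lymphocytes and myeloid cells, was the lowest with 13.2 in wild-type and 16.7 in Npffr1-KO, at percentile 9.03 of wild-type levels. For the neighbours in this order the spread between samples is not known, because the table gives 1 value per genotype, so the order of *Relb*, *Nfkb1* and *Nfkbib* in particular was not tested.

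**Figure D1:**
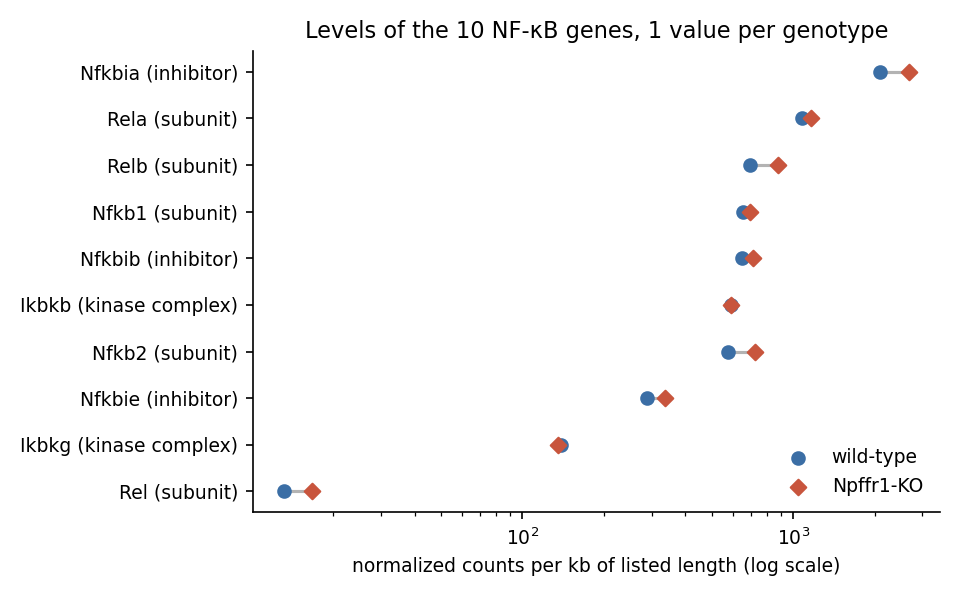
Level of each of the 10 NF-κB genes in wild-type (circles) and Npffr1-KO iAT (diamonds) in normalized counts per kb of listed length, on a log axis, with 1 value per genotype and no error. *Nfkbia* lay highest (2090 and 2667) and *Rel* lowest (13.2 and 16.7), and the 2 kinase genes had nearly the same value in both genotypes.

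The proportions between partners followed from these levels. Per kb, the 3 inhibitors together reached 1.004 times the 5 subunits together in wild-type and 1.07 times in Npffr1-KO. *Nfkbia* made up 69.0% of the inhibitor level in wild-type and 71.8% in Npffr1-KO. *Rela* made up 35.8% of the subunit level in wild-type and 33.5% in Npffr1-KO. *Nfkbia* lay 1.94 times above *Rela* in wild-type and 2.29 times in Npffr1-KO. In the non-canonical pair, *Relb* was at 0.643 times *Rela* in wild-type and at 0.757 times in Npffr1-KO. *Nfkb2* was at 0.877 times *Nfkb1* in wild-type and at 1.04 times in Npffr1-KO. Their order per kb was thus the opposite in the 2 genotypes, but the spread between samples is not known and this was not tested. *Ikbkb* lay 4.26 times above *Ikbkg* in wild-type and 4.36 times in Npffr1-KO. Against *Chuk*, which encodes IKKα, the other catalytic subunit of the complex, *Ikbkb* was 2.50 times higher in wild-type and 2.56 times in Npffr1-KO. These are ratios of transcript levels, with no measure of protein. Their differences between genotypes were not corrected for the dependence on gene length described below.

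Comparing the genotypes, 8 of the 10 members had a higher value in Npffr1-KO and the 2 kinase genes a slightly lower one. With a single value per genotype, a gene was counted as past the limit when its log2 ratio was at least 0.32 in size, that is, when the Npffr1-KO value lay at least 25% above or 20% below the wild-type value. No test was possible for 9 of the 10. Past the limit and higher in Npffr1-KO were 4 members, *Nfkbia*, *Relb*, *Rel* and *Nfkb2*, and 0 members were past it in the other direction. Of 15309 genes with a mean of at least 10, 12% were past the limit higher in Npffr1-KO and 11.6% past it lower. Of those with a mean of at least 100 the shares were 10.9% and 8.53%. The median log2 ratio of Npffr1-KO to wild-type over the 10 members was 0.18, while that over all 15309 genes was 0.01, with quartiles of −0.16 and 0.19. In bulk tissue fewer cells of a type and less RNA per cell cannot be told apart, and markers of T cells had higher values in Npffr1-KO by 0.64 to 0.77 on the log2 scale. Their part in the values of the NF-κB genes was not tested.

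Among the subunits, the canonical pair differed little between the genotypes. *Rela* had 2923 normalized counts in wild-type against 3154 in Npffr1-KO, 7.91% more, a log2 ratio of 0.11. *Nfkb1* had 2701 and 2868, 6.20% more, a log2 ratio of 0.09. The non-canonical pair stood further apart. *Relb* had 1534 normalized counts in wild-type against 1947 in Npffr1-KO, 27.0% more, a log2 ratio of 0.34. *Nfkb2* had 1782 and 2238, 25.6% more, a log2 ratio of 0.33. *Rel* had 34.1 and 43.2, 26.7% more. The ratios of the last 3 subunits lay between percentiles 88.4 and 89.4 of all genes with a mean of at least 10, close to one another.

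Each of the 3 inhibitors had the higher value in Npffr1-KO, by unequal amounts. *Nfkbia* had 3327 normalized counts in wild-type against 4246 in Npffr1-KO, a log2 ratio of 0.35 at percentile 89.9, the largest ratio among the members. *Nfkbie* had 700.2 and 820.2, 17.1% more, a log2 ratio of 0.23. *Nfkbib* had 912 and 997, 9.28% more, a log2 ratio of 0.13. Which of the members are induced by NF-κB in this tissue was not measured. The part of feedback by NF-κB on its own genes in these ratios was not tested.

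The kinase complex had nearly equal values in the 2 genotypes. *Ikbkb* had 2197 normalized counts in wild-type against 2192 in Npffr1-KO, and *Ikbkg* had 937 and 915, a log2 ratio of −0.04. Counting error alone gives the log2 ratio of *Ikbkb* a 95% interval from −0.05 to 0.05 and that of *Ikbkg* one from −0.11 to 0.04. For *Nfkbia* the same interval runs from 0.31 to 0.39, and for *Rel* from −0.03 to 0.72. These intervals hold no spread between samples and are therefore too narrow for a comparison of genotypes.

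**Figure D2:**
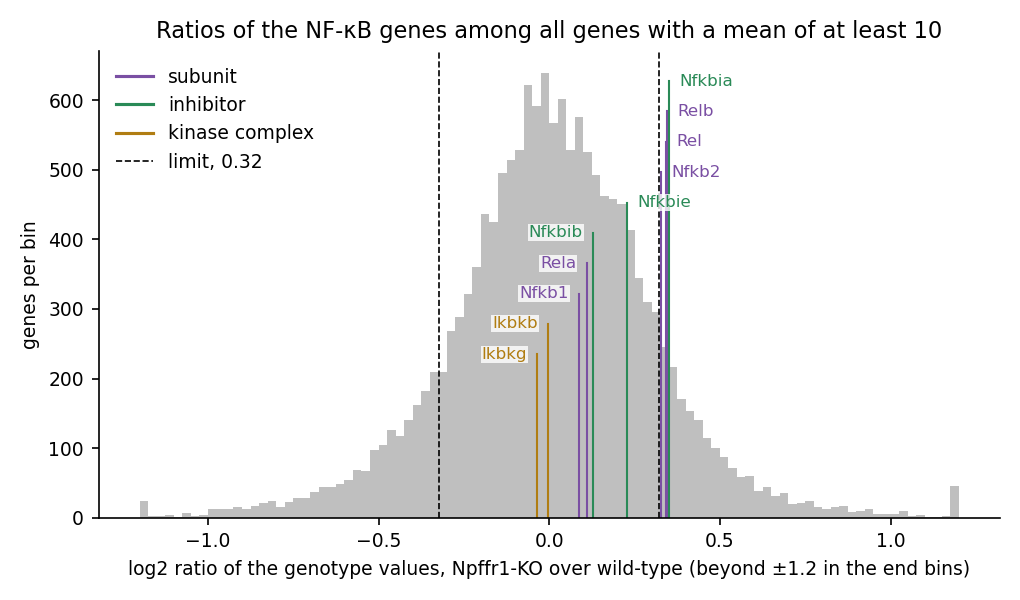
Log2 ratio of the Npffr1-KO to the wild-type value for the 10 NF-κB genes (coloured lines by role) over the histogram of all 15309 genes whose mean reached 10 normalized counts, with dashed lines at the limit of 0.32 in either direction; the heights of the coloured lines only separate the labels. *Nfkb2*, *Rel*, *Relb* and *Nfkbia* lay just past the upper line, as did 12% of all genes, and *Ikbkb* and *Ikbkg* lay near 0.

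The 4 members past the limit lay close to it, with log2 ratios from 0.33 to 0.35, and *Nfkbie* at 0.23 was the nearest one inside it. With the limit at 1.1-fold *Nfkbie* was added, which made 5 members, as against 31.3% of all genes higher and 28.3% lower in Npffr1-KO. At 1.5-fold 0 members were past it, as against 2.78% of all genes higher and 3.12% lower. When ratios were centred on the median gene, *Nfkb2* lay just inside the limit and 3 members were past it, as against 11.4% of all genes higher and 12.1% lower. Ratios in this table moved with gene length (Spearman's rho −0.384 across the 15309 genes; genes are no independent replicates). Its median was 0.27 in the shortest of 20 length classes and −0.15 in the longest. When each ratio was centred on genes of like length, 1 member, *Nfkb2* with 0.35, stayed past the limit, as against 8.19% of all genes higher and 11.6% lower. *Nfkbia*, a short transcript of 1592 bases, went from 0.35 to 0.23, *Relb* from 0.34 to 0.29 and *Nfkbib*, with 1405 bases, from 0.13 to 0.02. *Ikbkg*, the longest member with 6775 bases, went from −0.04 to 0.09, and *Ikbkb* from −0.003 to 0.05. Both kinase genes thus had the higher value in Npffr1-KO after this centring. The median of the 10 members was 0.17 after this centring.

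For *Nfkb2* and *Nfkbib* the counts themselves are less certain than for the rest. Of the stretches of 31 bases in the GENCODE M21 transcripts of *Nfkb2*, 16.3% also occurred in other genes, most of them in *AC114539.1*. For *Nfkbib* this share was 14%, nearly all with *Ccer2*, and for *Ikbkg* 5.81%, mostly with *G6pdx*. The other 7 members shared between 0% and 2.08%. How reads in such stretches were assigned was not given in the sources used here.

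*Rel* was the only member low enough for its reads to be worked out library by library, and these showed a wide spread. The wild-type libraries A, B and C held 24, 40 and 37 *Rel* reads, and the Npffr1-KO libraries 67, 48 and 18. In normalized counts these were 23.2, 39.2 and 36.7 in wild-type and 64.6, 48.4 and 19.6 in Npffr1-KO. The highest and the lowest of the 6 values were both from Npffr1-KO, and the groups overlapped. The means were 33.0 ± 8.61 (SD, n = 3) and 44.2 ± 22.8 (SD, n = 3) normalized counts. In limma on log2(normalized count + 1), fitted over 2866 genes with recovered reads and a mean of at least 10, the log2 difference was 0.29 with an SE of 0.41, a 95% interval from −0.58 to 1.16 and a Benjamini-Hochberg adjusted p of 0.836 over these genes. The two-sided exact permutation test gave p = 0.5 where 3 against 3 libraries cannot go below 0.1. The difference between genotypes was thus smaller than the spread between libraries, and its interval reached up to 1.16 on the log2 scale. It also rested on single libraries. Without the Npffr1-KO library A the log2 difference was −0.06, without the wild-type library A it was 0.06, without the Npffr1-KO library B it was 0.15, and without the Npffr1-KO library C it was 0.78, with adjusted p between 0.377 and 0.975 in limma.

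Reads of 5 further genes of the pathway lists with a mean over 30 were found in the same way. They encode the ligands interleukin-1α (*Il1a*), interleukin-1β (*Il1b*) and BAFF (*Tnfsf13b*, which feeds the non-canonical route in B cells), *Eda2r*, a receptor of the TNF receptor family, and the target *Lcn2*, a secreted iron-scavenging protein. *Il1a* had 37.7, 39.2 and 57.6 normalized counts in the wild-type libraries A, B and C, against 68.4, 67.6 and 28.4 in those of Npffr1-KO. Like *Rel*, it had both its highest and its lowest value in Npffr1-KO. *Tnfsf13b* had 29.0, 22.5 and 39.7 in wild-type and 51.1, 41.4 and 32.7 in Npffr1-KO, with the groups overlapping at the wild-type library C. *Il1b* had 33.8, 32.3 and 35.7 in wild-type and ranged from 17.5 to 37.3 in Npffr1-KO. *Eda2r* ranged from 50.6 to 66.6 in wild-type and from 32.7 to 64.6 in Npffr1-KO. *Lcn2* had 62.8, 73.4 and 91.3 in wild-type and 56.9, 57.5 and 84.0 in Npffr1-KO. For these 5 genes the adjusted p in limma lay between 0.621 and 0.87. The Npffr1-KO library C had the lowest Npffr1-KO value of *Rel*, *Il1a*, *Il1b*, *Tnfsf13b* and *Eda2r* and the highest of *Lcn2*. That library had the lowest size factor, 0.916, with the others reaching up to 1.04.

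**Figure D3:**
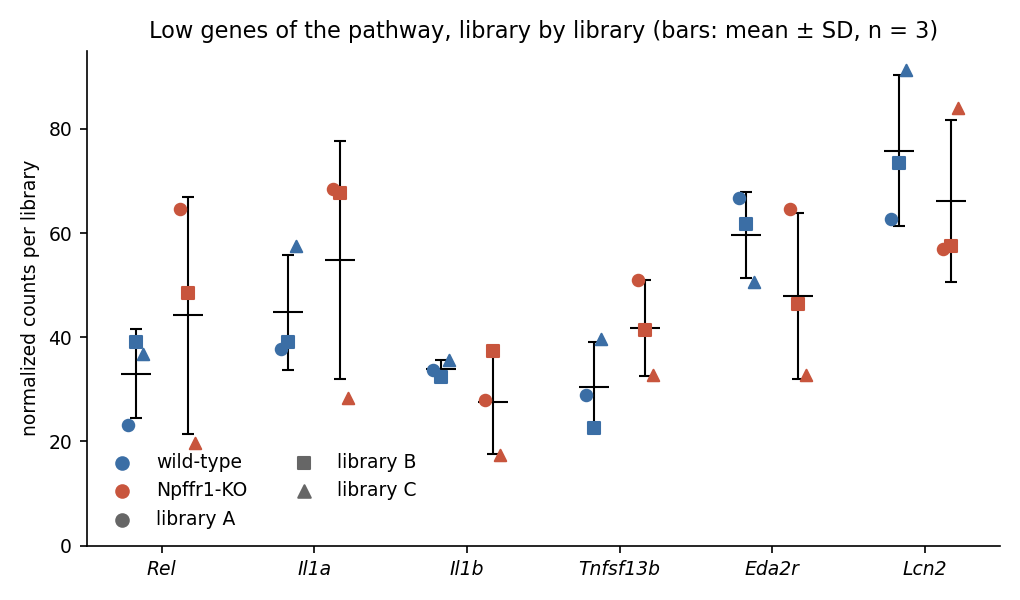
Normalized counts of *Rel*, *Il1a*, *Il1b*, *Tnfsf13b*, *Eda2r* and *Lcn2* in each wild-type (blue) and Npffr1-KO library (red), with bars for the mean ± SD of 3 libraries; the shapes mark libraries A, B and C within a genotype and do not pair them across genotypes. The genotypes overlapped for each of these genes, and the *Rel* values of Npffr1-KO spread from 19.6 to 64.6.

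Among all 2866 genes of that fit, 0 (0%) passed an adjusted p of 0.05 in limma and 345 had an unadjusted p under 0.05. The median SD between libraries of a genotype was 0.52 (log2 scale) where the mean lay from 10 to 30 and 0.30 where it lay from 60 to 100. The other 9 members, with means of about 760 and above, lie outside this range, and their spread between libraries is not known.

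The ratios of the genotype values of members with a κB match and of those without one did not overlap, which is a description of 7 genes with no test. The 4 with a match had log2 ratios from 0.23 to 0.35 and the 3 without a match from −0.04 to 0.13. *Relb*, *Nfkb1* and *Ikbkb*, with log2 ratios of 0.34, 0.09 and −0.003, had no window and could not be placed. A match in *Nfkb1* or *Ikbkb*, or none in *Relb*, would make the groups overlap. *Rel*, 1 of the 4 with a match, rests on single libraries, and its limma difference of −0.06 without the Npffr1-KO library A or 0.06 without the wild-type library A would leave the 2 groups overlapping. Across all genes with a mean of at least 10, those with a match did not stand higher. The median log2 ratio was −0.01 over 782 genes with a match and 0.01 over 11286 without one. Past the limit higher were 10.6% of the former and 11.8% of the latter, and past it lower 13.2% and 11%. Of all genes not in the table of windows, 13.1% were past it higher and 13.4% lower. In the further genes of the pathway described next, 6 of 18 with a match (33.3%) and 7 of 41 without one (17.1%) were past the limit higher, as were 6 of 14 that were not in the table of windows (42.9%). The 6 with a match that were past the limit were *Nfkbid*, *Ltb*, *Tnfaip3*, *Sod2*, *Ier3* and *Cxcl1*. The others of the 18 lay inside the limit, with log2 ratios from −0.20 to 0.18. *Relb*, *Nfkb1* and *Ikbkb* were not in the table of windows either.

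The rest of the pathway was taken as 6 lists of 76 genes, of which 73 had a mean of at least 10. Of these, 47 had a higher value in Npffr1-KO, 19 were past the limit higher and 1 was past it lower, with a median log2 ratio of 0.10. When centred on genes of like length, 16 were past it higher and 2 lower, against 8.19% and 11.6% of all genes. By list, 3 of 7 other core genes, 5 of 9 ligands, 8 of 19 targets, 1 of 12 receptors, 1 of 14 adaptors and kinases and 1 of 12 genes of the ubiquitin machinery were past the limit higher in Npffr1-KO, against the 12% of all genes. The lists were chosen with earlier results of these data known, so these counts are a description and no test.

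Of 7 other core genes, 3 were past the limit higher. *Nfkbid* and *Nfkbiz*, nuclear IκB proteins that modulate NF-κB at its target genes, had 372 and 453 normalized counts in wild-type and 640 and 721 in Npffr1-KO, log2 ratios of 0.78 and 0.67. *Ikbke*, an IKK-related kinase, had 855 and 1139, a log2 ratio of 0.41. *Bcl3*, a further nuclear IκB protein, had 999 and 1063. Of the kinase genes in this list, *Chuk* (825 and 803) and *Tbk1* (882 and 804) had slightly lower values in Npffr1-KO, as *Ikbkb* and *Ikbkg* did. When centred on genes of like length, *Chuk* (−0.01) and *Tbk1* (−0.11) stayed lower, while *Ikbkb* (0.05) and *Ikbkg* (0.09) did not.

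Of 9 ligands, 5 were past the limit higher and the median log2 ratio was 0.37. *Ltb*, the membrane-bound chain of lymphotoxin, was the most abundant, with 1802 normalized counts in wild-type against 2615 in Npffr1-KO, a log2 ratio of 0.54. *Cd40lg*, the CD40 ligand of T cells, had 67.5 and 115, a log2 ratio of 0.77. *Tnf* had 160 and 231, a log2 ratio of 0.53, and *Lta*, the secreted lymphotoxin chain, 285 and 368, a log2 ratio of 0.37. *Tnfsf13b* had a log2 ratio of 0.39 between the genotype values. *Il18* had 289 and 288, and *Tnfsf11*, the RANK ligand, 198 and 212.

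Of 12 receptors, 1 was past the limit higher and 1 past it lower. *Cd40* had 318 normalized counts in wild-type against 475 in Npffr1-KO, a log2 ratio of 0.58. *Il1rap*, the accessory chain of the interleukin-1 receptor, had 226 and 179.5, a log2 ratio of −0.33. The abundant receptors *Tnfrsf1a* (4457 and 4326) and *Ltbr*, the lymphotoxin-β receptor (2829 and 2797), had nearly equal values, and *Tnfrsf1b*, the TNF receptor of leukocytes, had 1749.5 and 2169, a log2 ratio of 0.31 just inside the limit. *Il1r1*, the interleukin-1 receptor, had 1475 and 1374. Of 14 adaptors and kinases, *Tradd*, the adaptor of the TNF receptor, was past the limit with 382 and 489, and the most abundant, *Tab2*, *Irak1*, *Map3k7* and *Birc3*, had log2 ratios from −0.16 to 0.23. Of 12 genes of the ubiquitin machinery and its brakes, *Tnfaip3*, a deubiquitinase that NF-κB induces to limit its own activation, was past the limit with 886 and 1123, a log2 ratio of 0.34. The most abundant, *Tax1bp1*, *Rbck1*, *Sharpin* and *Tnip1*, had log2 ratios from −0.03 to 0.17.

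Of the 19 listed NF-κB targets with a mean of at least 10, 8 were past the limit higher, 0 were past it lower, and 16 had a higher value in Npffr1-KO. The largest ratio was that of *Cxcl1*, a neutrophil chemokine, with 87.1 normalized counts in wild-type against 209 in Npffr1-KO, a log2 ratio of 1.26. *Gadd45b*, a stress-response gene, had 577 and 1180.0, a log2 ratio of 1.03. *Ier3*, an immediate early gene, had 196 and 355, and *Ptgs2*, the inducible cyclooxygenase, had 8.13 and 14.4. *Sod2*, the mitochondrial superoxide dismutase, was the most abundant of the list, with 2326 and 3612, a log2 ratio of 0.63. *Ccl5* (1995 and 2242), *Vcam1* (1911 and 2088) and *Csf1* (2177 and 1980.4) differed less, the last with the lower value in Npffr1-KO. *Il6* and *Cxcl2* were among the 3 targets under a mean of 10. *Il6* had 2, 1 and 5 reads in wild-type and 4, 8 and 0 in Npffr1-KO. *Cxcl2* had 5, 1 and 1 reads in wild-type and 2, 21 and 2 in Npffr1-KO, with most of its reads in the Npffr1-KO library B.

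**Figure D4:**
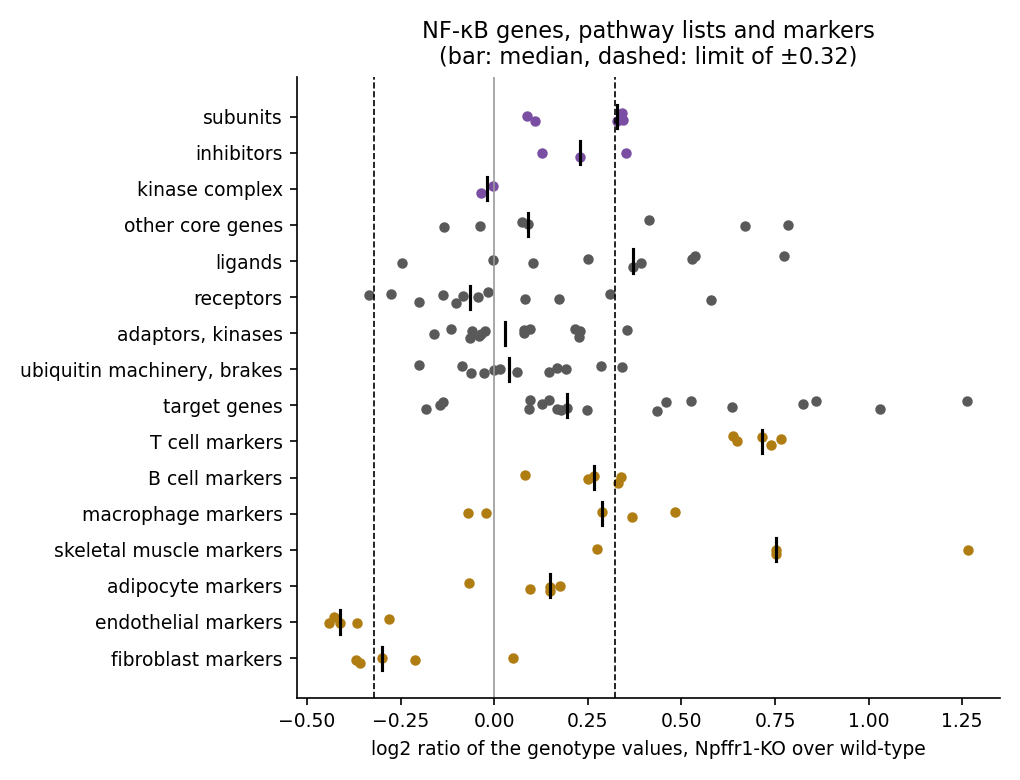
Log2 ratio of the Npffr1-KO to the wild-type value for each gene with a mean of at least 10 in the NF-κB groups (purple), the further pathway lists (grey) and marker lists of cell types (ochre), with bars at the list medians and dashed lines at the limit of 0.32; the vertical scatter within a row is only for display. The markers of skeletal muscle (median 0.75) and T cells (median 0.72) had the highest medians among the lists plotted, and the endothelial markers the lowest (median −0.41).

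The values of marker genes of several cell types also differed between the genotypes. Over all genes, 12% were past the limit higher in Npffr1-KO and 11.6% past it lower. Of the 5 T cell markers, 5 were past the limit higher in Npffr1-KO, with log2 ratios from 0.64 to 0.77 and a sum of 5147 normalized counts in wild-type against 8426 in Npffr1-KO. None of them was at 0. *Lck*, the most abundant, had 1675 and 2798. Of the 5 B cell markers, 2 were past it, with log2 ratios from 0.08 to 0.34 and a sum of 8704 and 10361. *Cd79a* had 3383 and 4250. Of the 5 macrophage markers, 2 were past it higher, with *Lyz2* at 9262 and 11951 and the *Csf1r* ratio at −0.07. Neutrophil markers were low, with a sum of 176 and 149.9, and 0 of the 2 with a mean of at least 10 were past it. The endothelial markers had lower values in Npffr1-KO, 4 of 5 past the limit, with a sum of 59973 and 46805. Of the 5 fibroblast markers, 2 were past it lower, and the adipocyte markers had log2 ratios from −0.07 to 0.18. Skeletal muscle markers were few in counts, summing to 333 in wild-type against 662 in Npffr1-KO, with *Myh4* under 1, and 3 of the 4 with a mean of at least 10 were past the limit higher. Their median log2 ratio was 0.75, and *Acta1*, the most abundant, had 171 and 409.9. When ratios were centred on genes of like length, 5 T cell and 4 skeletal muscle markers were past the limit higher. The B cell and macrophage markers past it were then 0. Past it lower were then 2 endothelial markers, 1 fibroblast marker and 2 neutrophil markers. The shares of all genes were then 8.19% higher and 11.6% lower. Of muscle genes outside the list, *Mybpc1* had 13.5, 45.0 and 15.9 normalized counts in the wild-type libraries A, B and C, against 140.7, 27.2 and 9.82 in those of Npffr1-KO. The Npffr1-KO library A, without which the difference in *Rel* was −0.06, was thus also the highest in *Mybpc1*, and the part of muscle RNA in the values of the NF-κB genes was not tested.

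A list of 35 further lymphocyte genes, written after the values had been seen, summed to 8521 normalized counts in wild-type against 11759 in Npffr1-KO. Of the 32 with a mean of at least 10, 24 were past the limit higher and 3 lower, against 12% and 11.6% of all genes. When centred on genes of like length, 21 were past it higher and 3 lower, against 8.19% and 11.6% of all genes. For 13 genes of the list the reads were found per library. Their sums were 379.5, 356.3 and 443.6 normalized counts in the wild-type libraries A, B and C against 578.2, 440.0 and 471.4 in those of Npffr1-KO. The Npffr1-KO library A was the highest in this sum and in *Rel*, while the Npffr1-KO library C was the lowest in *Rel* and not in this sum. *Rel*, *Relb*, *Nfkb2*, *Ltb*, *Cd40* and *Cd40lg* are all known from lymphocytes, but they are named here from among the genes past the limit. The part of lymphocytes in the values of the NF-κB genes was not tested.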

How the data were processed

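The samples, 3 of wild-type and 3 of Npffr1-KO iAT taken at postnatal day 6, were grouped by their labels. The submitters' processing notes name Bowtie2, RSEM and DESeq2; versions, genome build and gene models were not given in the sources used here. The table the authors deposited gives for each gene a signal, read counts normalized for library size, as 1 value per genotype. For low genes the ratio of the 2 values is drawn toward 1, so that it is not the ratio of the library means. Its 4 columns of the authors' own comparison (fold change, p-values, direction) and a second, filtered table were not used.

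A gene with only 1 read in all takes 1 of 6 values, which give the size factor and genotype of each library (0.916 to 1.04). Combinations of whole reads that matched the mean of the 2 deposited values within its 15 digits were searched for 7499 genes. Exactly 1 was found for 7319 (97.6%) and none for 180. In 2236 of 2236 genes with a log2 ratio over 0.1 in size and a mean of at least 10, the reads gave the direction of the deposited values. In simulated reads of 1499 genes, 1484 of the 1484 found were right. Reads of 2866 genes with a mean of at least 10 were tested in limma 3.58.1 (R 4.3.3; trend, pseudocount 1, threshold 0.05). In a simulation on these genes, 97.5% of 200 genes changed by 2 on the log2 scale were called, as were 12 unchanged genes. Smaller changes, such as the 0.29 of *Rel*, were not simulated, so this share does not apply to them.

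Other members were described by the ratio of the genotype values, with a log2 ratio of 0.32 as the limit. Counting intervals cover counting error only. Alternatives were other folds, minimums and pseudocounts, centring on the median gene or on 20 length classes, levels not divided by length, and leaving out each library. Promoter windows were matched by gene ID. All 10 members are named; of each further list at most the 4 with the highest mean and those past the limit, up to 6, and of each marker list at most 3. *Il1a*, *Il1b*, *Eda2r*, *Il6*, *Cxcl2*, *Lcn2*, *Npffr1*, *Csf1r* and *Mybpc1*, the remaining adipocyte markers and *Myh4* were named after their values were seen. The members and lists were chosen with earlier results of these data known.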

Additional observations from a re-analysis of the deposited data

How the results depend on the processing

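The median log2 ratio of the 10 members stayed between 0.17 and 0.18 under centring on the median gene, centring on genes of like length and pseudocounts of 1 and 10. Of the single ratios, 6 of 10 moved by more than their counting interval when centred on genes of like length, and 0 of 10 did under the other 3 settings. The number of members past the limit was 4 (12% of all genes higher), against 0 at 1.5-fold (2.78%), 1 when centred on genes of like length (8.19%), 3 when centred on the median gene (11.4%) and 5 at 1.1-fold (31.3%). In wild-type, 3 of the 10 members kept their place in the order of levels when values were not divided by length. For *Rel*, the log2 difference in limma lay between 0.27 and 0.38 under other minimums, pseudocounts and centring (adjusted p from 0.762 to 0.838). Leaving out 1 library gave a range from −0.056, reversed without the Npffr1-KO library A, to 0.78 without the Npffr1-KO library C. The cause was not tested. No paired analysis was possible because the deposited columns carry no replicate numbers and the libraries found from the reads have no sample number. With 1 value per genotype for 9 of the 10 members, no difference between genotypes could be set against the spread between samples.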
